A study of Mus musculus with 2 samples.

Results

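The 9 genes described here encode proteins that bind, carry, make and sense retinoids: Crabp1, Crabp2, Rbp4, Stra6, Aldh1a1, Aldh1a2, Rara, Rarb and Rarg. They were chosen by name from a table of 55323 rows when their FPKM values in both libraries were already known, and those values are therefore given as a description. The RNA came from TgS1, a Schwann cell line of mouse origin with a human transthyretin V30M transgene (genotype TTR V30M tg in both groups), which serves the study of hereditary ATTR amyloidosis. Schwann cells are the glia that wrap and support peripheral axons. One culture was long-term in DMEM, a standard basal medium, and the other long-term in SCM, a name left unexplained in the labels. Each group had 1 library, so no difference below has a replicate check. The DMEM library held 29085791 assigned reads and the SCM library 36666676.

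Retinol travels in blood on RBP4, which itself binds transthyretin, and enters some cells through the receptor STRA6. Inside the cell, dehydrogenases oxidise retinol to retinaldehyde, and the ALDH1A enzymes turn retinaldehyde into retinoic acid. Retinoic acid is held in the cytoplasm by CRABP1 and CRABP2, activates gene transcription through the receptors RAR alpha, beta and gamma paired with RXRs, and is broken down by CYP26 enzymes. In the peripheral nerve, retinoic acid signalling is known from development and from the response to injury.

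The promoters of Rarb and Crabp1 are shown because these were the members past 2-fold between the media. Both windows come from RefSeq on GRCm38.p6 and run from 250 bases before to 50 bases after the annotated start. The Rarb window is chr14:16575427-16575726 on the minus strand and the Crabp1 window is chr9:54764498-54764797 on the plus strand. The Rarb window lies inside the gene span given below, away from the upstream end of that span. FPKM is counted per gene, and the part of the Rarb reads from transcripts that start in this window was not tested. Capitals mark a direct repeat of 6-base sites, the arrangement that RAR-RXR pairs are known to bind.
Rarb: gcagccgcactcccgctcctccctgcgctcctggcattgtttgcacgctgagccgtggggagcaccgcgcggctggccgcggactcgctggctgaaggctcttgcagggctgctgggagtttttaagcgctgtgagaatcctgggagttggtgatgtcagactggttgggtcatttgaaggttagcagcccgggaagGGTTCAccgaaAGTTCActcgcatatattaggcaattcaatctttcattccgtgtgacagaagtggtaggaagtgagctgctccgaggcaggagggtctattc
Crabp1: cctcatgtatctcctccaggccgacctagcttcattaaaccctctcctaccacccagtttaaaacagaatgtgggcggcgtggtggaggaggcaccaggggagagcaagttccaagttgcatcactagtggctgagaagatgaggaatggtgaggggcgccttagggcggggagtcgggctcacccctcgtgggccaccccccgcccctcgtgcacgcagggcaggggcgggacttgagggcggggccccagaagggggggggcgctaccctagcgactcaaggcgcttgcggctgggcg

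The sites searched were the consensus AGGTCA and its variants AGTTCA (the downstream site of Rarb), GGTTCA (its upstream site) and, as a further form, GGGTCA. They were looked for as a direct repeat with 1, 2 or 5 bases between the sites, on both strands. The Rarb window held a repeat with 5 bases between, from position 198 of the window. Rarb is known for a retinoic acid response element of this spacing. Of 17 windows of members, 1 held a match, and of all 32851 windows 193 (0.588%) did. The sites and spacings were chosen with the known Rarb element in view, so its match was given by the choice and nothing is read from these shares. The spacing of 5 bases was found in 32 windows (0.0974%), among them that of Cyp26a1, a retinoic acid hydroxylase gene. The Rarb and Cyp26a1 repeats are set side by side below, each as read on the strand of its gene, where the Cyp26a1 repeat lies in the opposite direction.
Rarb repeat: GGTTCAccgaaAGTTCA
Cyp26a1 repeat: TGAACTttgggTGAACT
The Crabp1 window held none of these letter combinations, and no window of Crabp2 was used. A match describes letters in a window and says nothing of binding in these cells.

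Of the 9 members, 5 reached 1 FPKM (fragments per kilobase of gene and per 1000000 assigned reads) in 1 or both libraries, and the other 4 had between 0 and 2 reads. The binding proteins and receptors were present, whereas the retinol carrier, its receptor and both ALDH1A enzymes were at or near 0. On the log2(FPKM + 1) scale Crabp1 and Rarb, 2 members, were past 2-fold in the direction of SCM, and 0 were past it in the direction of DMEM. Across the 12334 rows that reached 1 FPKM in either library, 3.1% were higher in SCM and 2.8% lower at this limit. Nothing is read from the members' count, since they were chosen with this contrast known. Intervals below are 95% exact intervals from the read counts. They cover counting error only, and may be too narrow even for that, because the reads were amplified and carry no molecular identifiers.

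**Figure D1:**
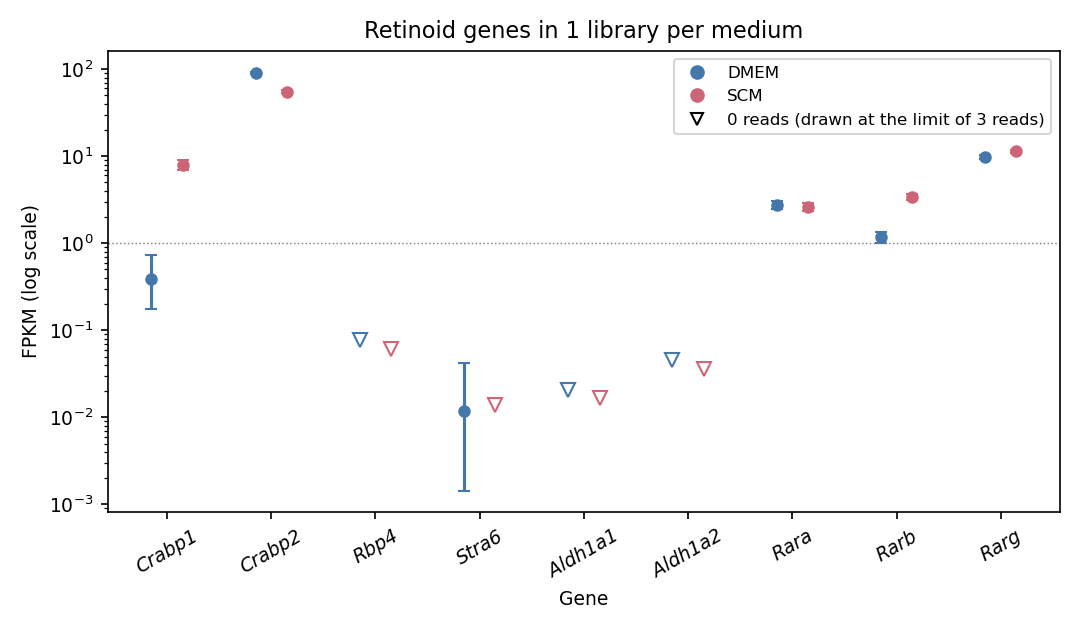
FPKM (log axis) of the 9 retinoid genes in DMEM (blue) and SCM (red), 1 library each, with 95% exact Poisson intervals of the reads. Open triangles mark 0 reads and are drawn at the level of 3 reads, and the dotted line is 1 FPKM. Crabp1 and Rarb sit higher in SCM, Crabp2 sits lower, and Rbp4, Aldh1a1 and Aldh1a2 have triangles in both media.

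Crabp2 was the most abundant member in both libraries and Crabp1 the one with the largest ratio, in opposite directions. Crabp1, a cytoplasmic protein that binds retinoic acid, had 9 reads in DMEM (0.386 FPKM) and 232 reads in SCM (7.89 FPKM). It was thus close to absent in DMEM and at a moderate level in SCM, 20.4-fold higher (10.6 to 45.3), with a log2 ratio of 2.68. That log2 ratio was the 15th highest of 12334 rows. The gene (ENSMUSG00000032291) lies at chr9:54764748-54773110 on the plus strand in GENCODE M21 (GRCm38). This and the gene positions below are those of GENCODE M21 by gene identifier. Of the 9 members, 0 have the same position in the authors' deposited list, and 8 have the same span there, all but Rarb. Crabp2, which binds retinoic acid and delivers it to the receptors, stood at 90.2 FPKM in DMEM, from 3470 reads, and at 55.1 FPKM in SCM, from 2673 reads. It was 1.64-fold lower in SCM (1.56 to 1.72), with a log2 ratio of -0.70, inside the 2-fold limit. By level it ranked 330 among all rows in DMEM and 610 in SCM. The gene (ENSMUSG00000004885) lies at chr3:87948666-87953376 on the plus strand.

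Summed over both CRABP genes, the level was 90.6 FPKM in DMEM and 63.0 FPKM in SCM. Crabp1 made up 0.426% of that sum in DMEM and 12.5% in SCM. Crabp2 stood 233.9-fold above Crabp1 in DMEM and 6.99-fold above it in SCM, so that Crabp2 remained the main CRABP transcript in either medium. In a bulk library, fewer cells with a transcript and less of it per cell cannot be told apart.

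The order of the receptor genes differed between the media. Rarg, the gamma receptor, stood at 9.80 FPKM in DMEM (1215 reads) and 11.3 FPKM in SCM (1770 reads) and was the most abundant RAR gene in both. Its level was 1.16-fold higher in SCM (1.07 to 1.24), a log2 ratio of 0.19. Rara, the alpha receptor, had 2.75 FPKM (349 reads) and 2.62 FPKM (419 reads), and the interval of its ratio (0.824 to 1.101) held 1. Rarb, the beta receptor and itself a retinoic acid target, stood at 1.18 FPKM in DMEM (180 reads) and 3.39 FPKM in SCM (655 reads). Rarb was the lowest RAR gene in DMEM and the middle one in SCM.

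Rarb was 2.89-fold higher in SCM in plain FPKM (2.44 to 3.42). Its log2 ratio of 1.01 lay just past the 2-fold limit, 370th from the top where 382 rows were called higher. With a pseudocount of 3 FPKM the log2 ratio was 0.61 and the call was lost. The Rarb gene (ENSMUSG00000017491) lies at chr14:16430839-16819156 on the minus strand. By the exon positions in the authors' list, which were used for both genes, its exons share 1793 bases, 34.1% of its counted length, with Top2b, a topoisomerase gene on the other strand. Top2b had 18.9 FPKM in DMEM and 19.9 FPKM in SCM. Whether reads were counted by strand is not stated, and the part of shared reads in the Rarb values was not tested.

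The 3 receptor genes together had 13.7 FPKM in DMEM and 17.3 FPKM in SCM. Rarg supplied 71.4% of the sum in DMEM and 65.3% in SCM. The share of Rara was 20.0% in DMEM and 15.1% in SCM, and that of Rarb 8.56% and 19.6%. In SCM the counting intervals of Rarb (3.14 to 3.66 FPKM) and Rara (2.37 to 2.88 FPKM) did not overlap, nor did they in DMEM (1.01 to 1.36 and 2.47 to 3.05 FPKM). Rara lies at chr11:98927818-98974942 on the plus strand and Rarg at chr15:102234938-102257517 on the minus strand.

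**Figure D2:**
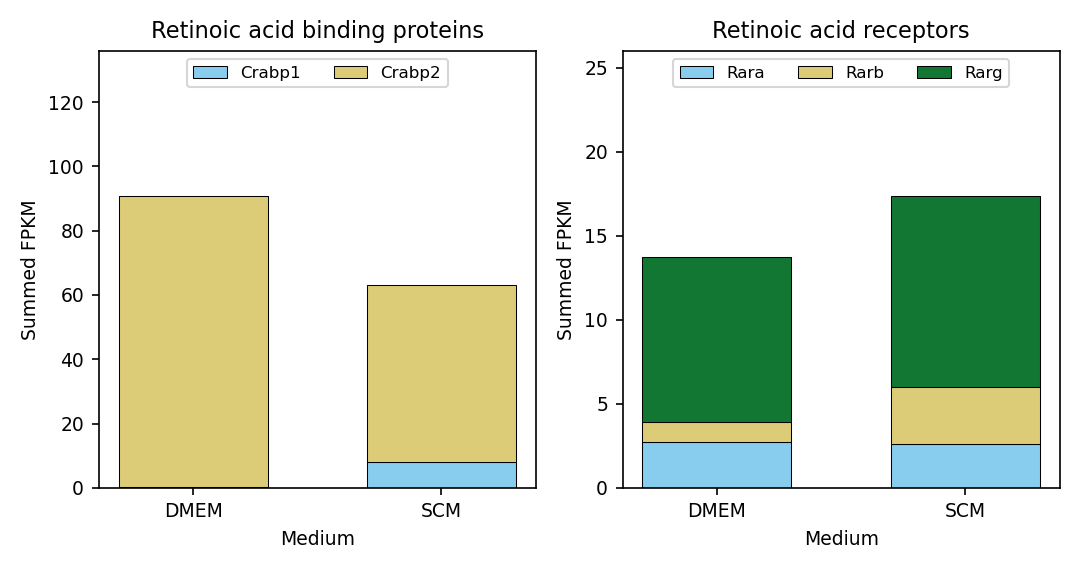
Summed FPKM of the 2 CRABP genes (left) and the 3 RAR genes (right) in the DMEM and SCM libraries, stacked by gene, with no error bars because there was 1 library per medium. Crabp1 is a visible part of the left bar in SCM (12.5% of the sum), and Rarb takes 8.56% of the right bar in DMEM and 19.6% in SCM.

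Transcripts for retinol delivery and for the last step of synthesis were not detected or were at the limit. Rbp4, the serum carrier of retinol, had 0 reads in both libraries, and at 3 reads this allows a level of 0.0768 FPKM in DMEM and of 0.0609 FPKM in SCM. Stra6, the membrane receptor for the carrier, had 2 reads in DMEM and 0 in SCM, both under that floor. Mouse Ttr, whose protein carries RBP4 in blood, had 1.71 FPKM in DMEM and 5.73 FPKM in SCM. Whether reads of the human transgene add to the mouse Ttr row was not tested. Rbp4 itself was not detectable at this depth.

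Aldh1a1 and Aldh1a2, which encode retinaldehyde dehydrogenases, each had 0 reads in both libraries. For Aldh1a1 such a count allows a level of 0.0209 FPKM in DMEM and of 0.0166 FPKM in SCM, and for Aldh1a2 of 0.0456 and 0.0361 FPKM. The third enzyme of the family, Aldh1a3, had 5 reads in DMEM and 2 in SCM. None of the ALDH1A genes that make retinoic acid from retinaldehyde therefore passed 0.05 FPKM in either library, in point value or at the floor. Rows at 0 are common in this table: 34.1% of protein-coding rows had 0 reads in both libraries.

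The rest of the pathway was followed in 80 genes in 7 lists. Of these, 41 reached 1 FPKM in either library. Tgm2 and Kat2b (2 genes) passed 2-fold upwards in SCM and Rai14 (1 gene) downwards, with 20 log2 ratios above and 21 below 0. Their median log2 ratio was -0.01, beside -0.03 over all 12334 rows, and 7.32% of the 41 were called in either direction, beside 5.89% of all rows.

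Among the other binding proteins, Fabp5 was the single measured gene of 6. Its product can carry retinoic acid to the nuclear receptor PPAR delta, while CRABP2 carries it to the RARs. Fabp5 had 94.0 FPKM in DMEM and 51.2 FPKM in SCM, 1.84-fold lower (1.78 to 1.90), a log2 ratio of -0.87. The ratio of Crabp2 to Fabp5 was 0.960 in DMEM and 1.08 in SCM, so both carriers stood at like levels in each medium and both were lower in SCM. A processed pseudogene row, Fabp5l2, had 0 reads.

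The measured oxidoreductases that act on retinol or retinaldehyde differed little. Of 20 such genes, Aldh1a3 among them, 9 were measured and 0 were 2-fold apart, with log2 ratios between -0.33 and 0.17. Dhrs3, a retinaldehyde reductase gene that retinoic acid is known to induce, had 25.4 FPKM in DMEM and 20.7 FPKM in SCM. Dhrs4, another reductase gene, had 20.4 and 16.9 FPKM. Rdh10, which makes the main retinol dehydrogenase of the embryo, had 1.61 and 1.70 FPKM. Of 6 genes of retinol storage and release, 1 was measured, Dgat1, an acyltransferase gene at 1.80 FPKM in DMEM and 1.45 FPKM in SCM. Lrat, the main retinol esterifying enzyme gene, lay under the filter, at 0.0321 and 0.163 FPKM.

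Of the retinoic acid degrading enzymes, Cyp26b1 was the single measured gene of 5. It had 3.64 FPKM in DMEM and 1.51 FPKM in SCM, 2.40-fold lower in plain FPKM (2.08 to 2.77). On the log2(FPKM + 1) scale its ratio was -0.88, inside the 2-fold limit, and Crabp1 and Rarb went the other way. Cyp26a1, whose window held the repeat printed above, had 3 reads in DMEM and 13 in SCM, and the interval of its ratio (0.945 to 18.8) held 1.

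The measured RXR genes and other listed partners lay within 2-fold between the media, and the counting intervals of 4 of them excluded 1. Of 9 genes of RXRs and other partners 8 were measured and 0 were 2-fold apart, between -0.14 and 0.39 in log2 ratio. Rxra, the alpha RXR gene, had 8.47 FPKM in DMEM and 8.39 FPKM in SCM, and Rxrb 5.76 and 6.01 FPKM. Rxrg was under the filter, with 0.0150 FPKM in DMEM, on 1 read, and 0.154 FPKM in SCM, on 13 reads. The interval of the Rxrg ratio (1.55 to 438) excluded 1. The orphan receptor gene Nr2f2 was the most abundant of the list, at 141 and 156 FPKM, followed by Nr2f1 at 16.8 and 22.4 FPKM. The sum of the RXR genes was 14.2 FPKM in DMEM and 14.6 FPKM in SCM, beside 13.7 and 17.3 FPKM for the RAR genes.

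Of 14 coregulator genes, 13 were measured, 1 was higher, 0 were lower and the median log2 ratio was 0.00. The higher gene was Kat2b, a histone acetyltransferase gene, at 11.3 FPKM in DMEM and 23.7 FPKM in SCM, 2.10-fold (1.98 to 2.23). Its log2 ratio of 1.01 was 0.90 with a pseudocount of 3 FPKM and 0.994 in TPM, and in both settings the call was lost. The corepressor gene Ncor1 had 46.7 FPKM in DMEM and 45.5 FPKM in SCM, the highest level in this list.

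Genes known as retinoic acid targets differed in both directions. From the 20 listed, 8 were measured, 4 lay above 0 and 4 below, 1 was higher, 1 was lower, and the median log2 ratio was 0.00. Tgm2, the tissue transglutaminase gene, had 3.02 FPKM in DMEM and 10.4 FPKM in SCM, 3.44-fold higher (3.09 to 3.84). Rai14, a retinoic acid induced gene that encodes an actin-associated protein, had 21.6 FPKM in DMEM and 7.43 FPKM in SCM, 2.91-fold lower (2.77 to 3.05). Meis2, a homeobox gene, had 12.4 and 20.4 FPKM, within 2-fold. Rarres2, which encodes the chemoattractant chemerin, stayed under the filter at 0.0647 FPKM in DMEM (5 reads) and 0.934 FPKM in SCM (91 reads). The interval of its ratio (5.97 to 45.5) excluded 1. By the authors' exon positions, 33.6% of its length is shared with Lrrc61 on the other strand. Lrrc61 had 196 reads in DMEM and 443 in SCM, and the part of shared reads was not tested. Stra8 and Rarres1 were among 7 of the 20 genes with 0 reads in both libraries. The genes Rdh10, Rxra, Rxrb, Rxrg, Lrat, Aldh1a3, Cyp26a1 and Rarres2 were picked for the text after their values were seen.

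**Figure D3:**
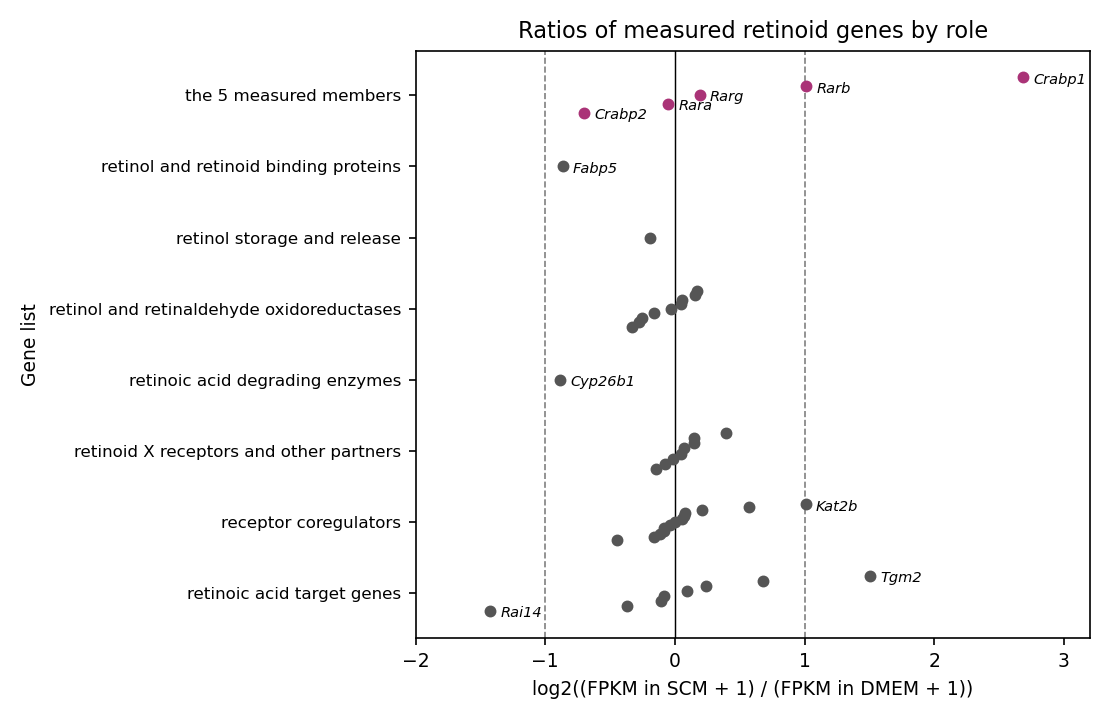
Log2 ratio of SCM over DMEM on the log2(FPKM + 1) scale for the 5 measured members (purple) and the 41 measured pathway genes (grey), 1 row of points per list. Dashed lines mark 2-fold. Crabp1, Rarb, Tgm2 and Kat2b lie past the right line and Rai14 past the left one, and all measured oxidoreductase and RXR-partner genes lie between the lines.

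By distance over the log2(FPKM + 1) levels in both libraries, the protein-coding genes most like Crabp1 were Col15a1, a collagen gene (0.357 FPKM in DMEM and 6.93 in SCM, distance 0.17), Ptprz1, a receptor phosphatase gene (0.338 and 6.57 FPKM, distance 0.24), and Gda, the guanine deaminase gene (0.551 and 6.68 FPKM, distance 0.27). Likeness over 2 libraries means only that the levels were close in each.

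**Figure D4:**
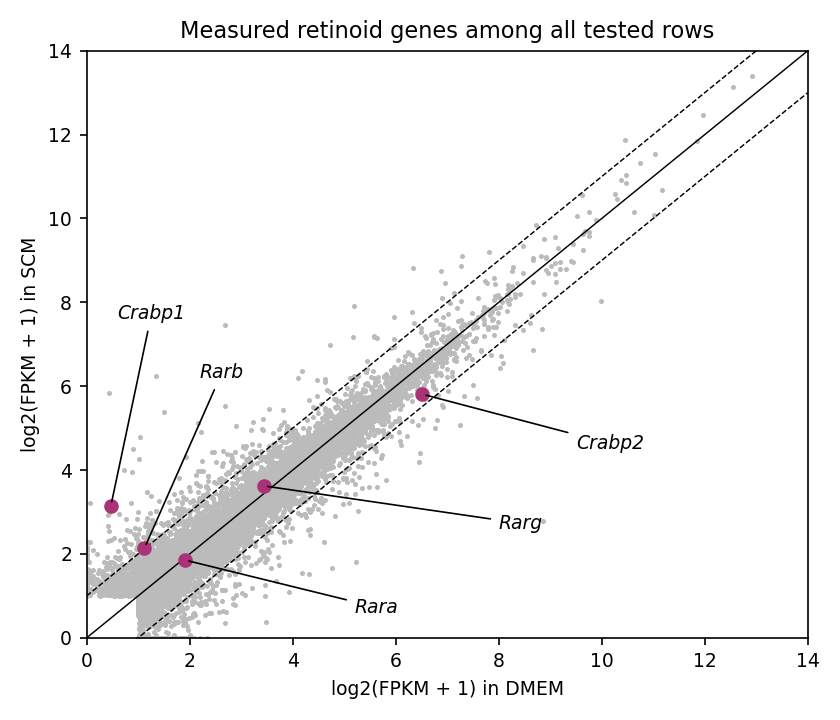
Level in SCM against level in DMEM, as log2(FPKM + 1), for the 12334 tested rows (grey) and the 5 measured retinoid genes (purple). The solid line marks equal levels and the dashed lines 2-fold. Crabp1 lies far above the upper dashed line, Rarb on it, Rarg and Rara near the solid line, and Crabp2 between the solid and the lower dashed line.

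All 8 Schwann cell markers reached the filter, with summed levels of 4082 FPKM in DMEM and 3914 FPKM in SCM. Markers of other cells were mostly below 1 FPKM in both libraries. Of 6 fibroblast markers 1 was measured, Col1a2, which was higher in SCM (0.742 and 3.15 FPKM). The fibroblast sum was 0.913 FPKM in DMEM and 3.21 FPKM in SCM, with Col1a1, Lum and Dpt at 0 reads in both libraries. Pdgfra, under the filter, went the other way, from 0.171 FPKM in DMEM, on 50 reads, to 0.0408 FPKM in SCM, on 15 reads, and the interval of its ratio (0.124 to 0.431) excluded 1. The endothelial markers summed to at most 0.0552 FPKM and the hepatocyte markers to at most 0.0441 FPKM, with Alb at 0. Macrophage markers summed to 1.42 and 1.51 FPKM, neuronal markers, mainly Syn1, to 7.73 and 6.05 FPKM, melanocyte markers to 0.480 and 0.559 FPKM and perineurial markers, mainly the broadly expressed Tjp1, to 33.7 and 44.2 FPKM, with 0 genes past 2-fold in these lists. Cldn1, Krt19, Rbfox3, Adgre1 and Mlana were at 0 reads in both libraries. The part of any of these cell types in the values of Crabp1 and Rarb was not tested.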

How the data were processed

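RNA from 1 library per medium was measured. The authors deposited FPKM values, which scale fragments by gene length and library total, with gene length, biotype and Gene Ontology terms for 55323 rows. Per the submitters' processing notes, the tools were STAR 2.7.9a, featureCounts 2.0.1, cutadapt 3.1, Trimmomatic 0.39 and Trim Galore, and the builds GRCm38.p6 and mm10. Their order, and whether counting used strand, are not stated in these notes. FPKM times length gave whole reads (100% of rows within 0.01 of a read), which served for counting intervals. With 1 library per medium, no test was made.

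Rows that reached 1 FPKM in either library were compared by the log2 of (SCM + 1) / (DMEM + 1), both in FPKM, and called at 2-fold. This scale makes ratios of low genes look smaller. A fold is the FPKM ratio without pseudocount, and its 95% interval is exact (Clopper-Pearson). The steps were tested on simulated reads. The members and the gene lists were chosen with earlier results of these data known. Named genes were all members, each pathway gene past 2-fold, the 2 genes of each list with the highest FPKM, the 3 protein-coding rows nearest to the member with the largest ratio, and mouse Ttr. A few listed genes are not reported here by name but enter the counts and sums. Alternatives changed the pseudocount, filter, scaling, rows, unit and call. Promoter windows come from RefSeq (GRCm38.p6), and protein sequences were not used here. Python 3.11.15, pandas 2.3.3, numpy 2.4.6 and scipy 1.17.1 were used.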

Additional observations from a re-analysis of the deposited data

How the results depend on the processing

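Members higher in SCM were 1, not 2, with a pseudocount of 3, a filter of 5 FPKM or a 3-fold limit, and in each the member left was Crabp1. Measured members numbered 5, or 3 with the filter of 5 FPKM. Rarb reached 3.39 FPKM at most, under the filter of 5. At 1.5-fold 1 of the 5 measured members, Crabp2, was lower, beside 7.52% of all rows. Pathway genes higher in SCM were 1 with a pseudocount of 3, 0 at 3-fold, and 3 in TPM or at 1.5-fold. Kat2b was not among those in TPM. Those lower were 2 with a pseudocount of 0.1 or in TPM, 3 at 1.5-fold and 0 at 3-fold. Measured pathway genes numbered 47 in TPM and 41 in the other settings named here for them. Over all rows, higher and lower calls were 681 and 625 with a pseudocount of 0.1, 148 and 131 with one of 3, 210 and 165 with a filter of 5 FPKM, 1011 and 1145 in TPM, 974 and 928 at 1.5-fold, 91 and 87 at 3-fold, and 259 and 148 among protein-coding rows alone. As shares of the measured rows, in the same order, these were 5.52% and 5.07%, 1.20% and 1.06%, and 3.01% and 2.36%. They were 6.09% and 6.90% in TPM, 7.90% and 7.52% at 1.5-fold, and 0.738% and 0.705% at 3-fold. Among protein-coding rows alone they were 2.55% and 1.46%, and 63.6% of calls were higher, beside 52.5% in all rows. Across pseudocounts, scalings, row sets and TPM, 0 of 48 log2 ratios of 8 measured members and called pathway genes changed sign. A changed pseudocount could not have changed a sign. Of the 48 values, 10 moved by more than the counting error of the gene's ratio. The log2 ratio of Crabp1 ran from 1.69 to 4.04. No paired analysis was possible because there was 1 library per medium, and for the same reason no library could be left out. At 9 reads in DMEM, Crabp1 is the member whose fold is least precise.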

Other observations

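A wider group, taken after the values were seen, holds the genes whose Gene Ontology annotation in the authors' table names a retinoid, retinol or retinoic acid term. Of 197 such genes 98 were measured, with 10 higher in SCM and 2 lower, and a median log2 ratio of 0.02. Calls made up 12.2% of the measured genes, beside 5.89% of all rows. Without the members and the listed pathway genes, 70 were measured, 8 were higher and 2 lower, a share of 14.3%. Nothing is read from either share, since the group was taken with the values known. Besides Crabp1, Rarb and mouse Ttr, the higher genes were Aqp1, Ptgds, Vdr, Cyp1a1, Abca1, Mest and Tacc1. Ptgds, which encodes a lipocalin that binds retinoids and makes prostaglandin D2, had 1.83 FPKM in DMEM and 41.0 FPKM in SCM. Vdr, the vitamin D receptor gene whose product pairs with RXR, had 165 reads in DMEM and 952 in SCM. Cyp1a1, a cytochrome P450 gene that is annotated to retinoic acid synthesis, had 3 reads in DMEM and 176 in SCM. The coactivator gene Tacc1, annotated to RAR and RXR binding, had 21.0 and 43.3 FPKM.

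The lower genes were Runx1, a transcription factor gene, at 7.08 FPKM in DMEM and 1.10 FPKM in SCM, and Zfp536. Zfp536 encodes a zinc finger protein annotated as a negative regulator of RAR signalling, and it had 43.0 FPKM in DMEM and 17.4 FPKM in SCM.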
